A study of Mus musculus with 9 samples.

Results

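Genes of cholesterol synthesis, of cholesterol uptake and transport, and of their shared regulator SREBP2 were followed across culture conditions in mouse embryonic stem cells. A list of 28 genes was matched by gene name to the deposited expression table. Of these, 26 have a row of their own, out of 24044 named rows, and all 26 passed the filter on low values together with the 12711 genes tested. Mbtps2 and Tm7sf2 stand only on rows that join them with a neighbouring gene and are given apart. RNA was sequenced from the established lines E14 and v6.5 and from Oct4 GiP, a line named for its Oct4 reporter. Each line was grown on gelatin for 2 weeks in Serum, in 2i or as Paused cells, which gave 1 library per line and condition and 9 in all. Paused cells received 200 nM INK128, which blocks the mTor kinase, for those 2 weeks; the labels do not name the medium it was given in, nor the inhibitors of 2i. No feeder layer is named for any of the groups, all carry the same passage range, and no genotype or allele differs by condition. A condition is therefore represented by 1 culture of each of 3 lines. The fits hold cell line as a block, so their p-values for conditions rest on how much a change varies from line to line.

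Cells make cholesterol from acetyl-CoA through mevalonate, the isoprenoid farnesyl diphosphate, squalene and lanosterol, and they take up more through lipoprotein receptors. SREBP2, the product of Srebf2, is a transcription factor that is made as a precursor in the membrane of the endoplasmic reticulum. SCAP escorts it to the Golgi when sterols are low, the proteases encoded by Mbtps1 and Mbtps2 release it there, and INSIG proteins hold SCAP back when sterols are high. The released factor raises transcription of most enzymes of the pathway and of Insig1, and mTor signalling is known to promote its activity. 2i is a medium that keeps embryonic stem cells in a uniform naive state, usually with inhibitors of MEK and GSK3.

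Levels are FPKM, fragments scaled by transcript length and by the size of the library, which allows genes of different length to be set side by side. Where 3 values are given for a condition, they stand in the order E14, v6.5 and Oct4 GiP. A fold change is the difference on the log2(FPKM + 1) scale, which understates changes of low genes, given with its limma standard error and a p-value adjusted by Benjamini-Hochberg over all 12711 genes. A gene was called when that adjusted p was under 0.05. The number of reads per library is unknown, since the table holds no counts. The table also holds a second column per library, in which the authors multiplied FPKM by 1 constant per library, which was 3.59 ± 0.173 (SD, n = 3) for Serum, 2.80 ± 0.362 for 2i and 1.88 ± 0.0950 for Paused. The 3 pairs of conditions each gave p = 0.1 for the constant, the smallest value of the exact two-sided permutation test with 3 against 3 libraries. In bulk RNA, fewer cells and less RNA per cell cannot be told apart.

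The labelled cell type was visible in every library. Summed FPKM of 6 embryonic stem cell markers ran from 3579 to 4979 in Serum, from 3616 to 4344 in 2i and from 5455 to 5988 in Paused, most of it Pou5f1 and Dppa5a. In Serum Nanog stood at 239, 42.8 and 185 FPKM and Zfp42 at 600, 99.8 and 722, both lowest in v6.5. Nanog was highest in 2i, at 329, 371 and 383. Of 8 endoderm markers 4 passed the filter. Their list summed to 93.9 to 138, 104 to 211 and 41.3 to 80.8 FPKM in Serum, 2i and Paused, most of it Sparc, while Gata6 stayed under 1 FPKM in every library. Of 7 trophoblast markers 4 passed, with sums of 22.3 to 53.8, 33.1 to 63.9 and 8.64 to 26.9 FPKM, most of it Tfap2c, and Elf5 was listed at 0 in 4 libraries. Of 7 fibroblast markers 2 passed, with sums of 4.26 to 11.3, 0.921 to 1.42 and 0.638 to 1.83 FPKM, and Lum was listed at 0 in 6 libraries. Within each line, endoderm and trophoblast sums were lowest in Paused and fibroblast sums highest in Serum; their part in the results was not tested.

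Promoter sequences are shown for 6 members, because 5 of them were among the genes called higher in 2i, 1 or more at each of 3 stages of the pathway, and Lbr was not called there but was called higher in Paused than in 2i. RefSeq (GRCm38.p6) windows from 250 bases before to 50 bases after the start were found for 24 of the 28 genes. Both strands were searched for the CCAAT box, CCAAT, the letters bound by NF-Y, a factor known to act beside SREBP2, and for 2 forms of the sterol response element, TCACNCCAC and its shorter core CACNCCAC, which lies within the first. The E-box CACGTG was searched as well. The 150 bases before the start are printed 5′ to 3′ on the gene's own strand, with CCAAT (or ATTGG, its reverse complement) and sterol response element matches in capitals.
Hmgcs1 (chr13:119690201-119690350, plus strand): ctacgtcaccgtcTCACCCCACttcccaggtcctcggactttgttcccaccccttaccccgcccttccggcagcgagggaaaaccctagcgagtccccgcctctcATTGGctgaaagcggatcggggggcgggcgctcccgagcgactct
Insig1 (chr5:28071262-28071411, plus strand): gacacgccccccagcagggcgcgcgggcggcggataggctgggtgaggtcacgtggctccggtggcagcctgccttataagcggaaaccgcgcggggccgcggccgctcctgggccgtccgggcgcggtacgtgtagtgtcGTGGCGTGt
Msmo1 (chr8:64733579-64733728, minus strand): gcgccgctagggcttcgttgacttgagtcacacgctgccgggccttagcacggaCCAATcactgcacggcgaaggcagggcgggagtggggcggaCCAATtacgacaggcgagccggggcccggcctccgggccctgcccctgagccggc
Cyp51 (chr5:4104698-4104847, minus strand): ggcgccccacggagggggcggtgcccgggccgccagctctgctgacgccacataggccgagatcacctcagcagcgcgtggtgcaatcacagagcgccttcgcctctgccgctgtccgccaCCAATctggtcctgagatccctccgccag
Mvd (chr8:122443423-122443572, minus strand): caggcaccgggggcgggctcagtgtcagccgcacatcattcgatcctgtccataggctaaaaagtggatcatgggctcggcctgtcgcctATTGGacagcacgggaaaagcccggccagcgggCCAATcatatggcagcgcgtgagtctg
Lbr (chr1:181842402-181842551, minus strand): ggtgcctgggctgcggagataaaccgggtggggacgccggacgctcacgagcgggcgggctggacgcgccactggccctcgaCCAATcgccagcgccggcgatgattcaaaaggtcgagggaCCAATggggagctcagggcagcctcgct

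A CCAAT box stood in the window of 20 of the 24 genes (83.3%), against 41.1% of all 27025 genes with a window and 43.4% of the 9168 tested genes with one. The match in Hmgcs1 was the only TCACNCCAC among the 24 (4.17%, against 1.44% of all genes and 1.48% of tested genes), and the core was found in Acat2, Hmgcs1 and Insig1 (12.5%, against 7.12% and 7.73%). The E-box stood in 5 members, Dhcr7, Hsd17b7, Insig1, Sc5d and Scap (20.8%, against 8.09% of all genes and 12.1% of tested genes). In the printed stretches Msmo1 and Mvd carry a pair of CCAAT boxes each, Cyp51 1, Hmgcs1 1 on the other strand, and Lbr a pair as well. Insig1 has its CCAAT match outside the printed 150 bases. These are letter matches and no measure of binding.

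**Figure D1:**
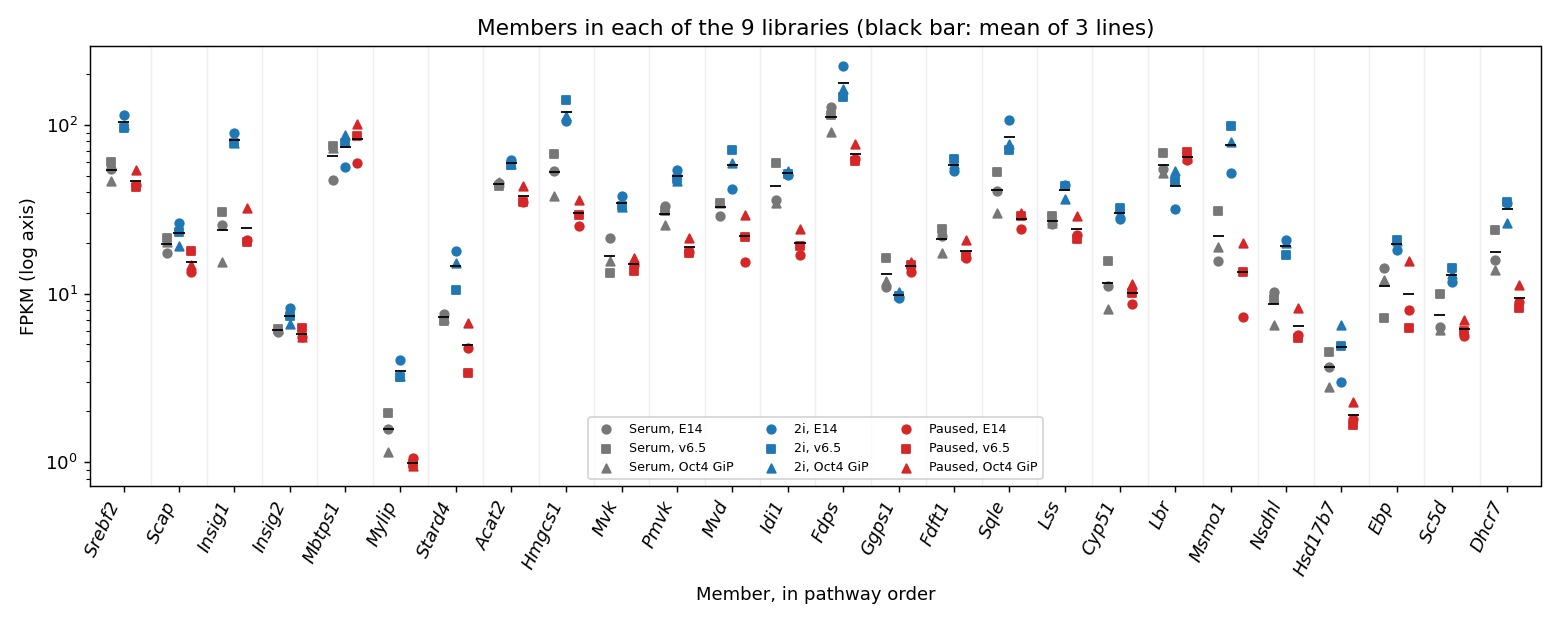
FPKM (log axis) of the 26 genes with their own row in each of the 9 libraries, in pathway order; colours mark the condition, symbols the line and black bars the mean of 3 lines. For most genes the 2i points lie on top, while Ggps1 has its 2i points at the bottom, Lbr has them below Paused but overlapping Serum, and Mbtps1 overlaps in all 3 conditions.

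Transcripts of the pathway were most abundant in 2i. Summed over the 26 genes, FPKM came to 735, 856 and 659 in Serum, to 1305, 1298 and 1266 in 2i and to 519, 576 and 696 in Paused. All 3 sums in 2i lay above all others, and the Serum and Paused sums overlapped through Oct4 GiP alone. Within a line the 2i sum was 1.77, 1.52 and 1.92 times the Serum sum, and the Paused sum was 0.706, 0.673 and 1.06 times the Serum sum.

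**Figure D2:**
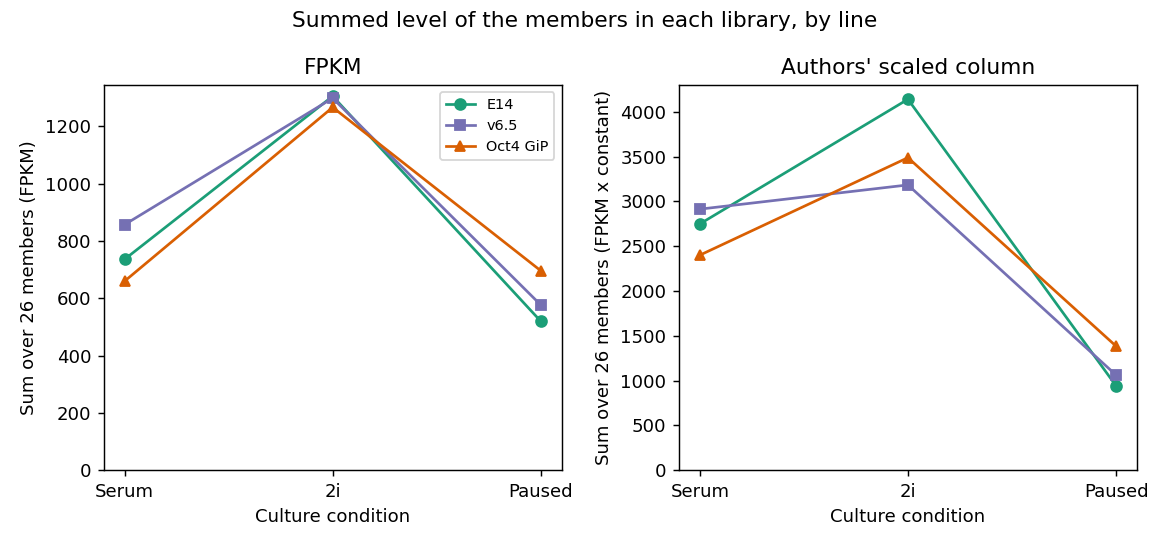
Summed level of the 26 genes by condition, 1 line per cell line, as FPKM (left) and on the authors' scale, FPKM multiplied by the constant of the library (right); both axes start at 0. In FPKM the 2i sums reach 1305, 1298 and 1266, and Oct4 GiP alone has a Paused sum above its Serum sum.

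Between 2i and Serum, 18 of the 26 genes were higher in 2i and 0 were lower, where 21.7% of all tested genes were higher and 18.9% lower. Without adjustment, 19 were higher and 2 lower at p under 0.05 in the same limma fit. The share of all tested genes at that unadjusted threshold was not computed, here or for the other counts before adjustment. The 3 libraries of 2i lay wholly above the 3 of Serum for 20 genes, and wholly below for 1, Ggps1, against 25.6% and 22.4% of all genes. The median change of the 26 was 0.80, and of all genes 0.02. Of the 18, 11 were called whichever library was left out; Acat2, Mvd, Fdps, Sqle, Lss, Sc5d and Dhcr7 were lost in at least 1 such fit, and each of these 7 was lost without the Serum library of Oct4 GiP or the 2i library of that line.

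Paused cells stood far below 2i. Of the 26 genes 22 were lower and 2, Ggps1 and Lbr, were higher, where 24.6% of all genes were lower and 19.8% higher. The groups did not overlap for 23 lower and 2 higher genes, against 28.3% and 23.6% of all genes. The median change was -1.25, beside -0.03 for all genes. Of the 24 calls, 19 were made whichever library was left out; Scap, Ggps1, Lbr, Hsd17b7 and Ebp were lost in at least 1 such fit. Comparisons with 2i share the same 3 libraries of 2i, so the higher level against Serum and against Paused are not separate observations of 2i.

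Against Serum, Paused cells had 6 genes lower, Hmgcs1, Pmvk, Mvd, Idi1, Fdps and Dhcr7, and 1 higher, Mbtps1, while 19 were not called; over all genes 10.5% were lower and 7.64% higher. Of the 6 lower genes, 5 are enzymes of the mevalonate and isoprenoid steps, of which 8 were tested. The libraries did not overlap for 10 lower and 0 higher genes, against 21.3% and 17.3% of all genes. The median was -0.30, beside -0.01 for all genes. None of the 7 calls held in all 9 fits that left out a library. Without 1 of the 3 Paused libraries, or the Serum library of E14 or Oct4 GiP, 0 members were called. The count was 1 without the Serum library of v6.5, and 5, 4 and 2 without the 2i library of E14, v6.5 and Oct4 GiP. Calls over all genes went from 2311 to 38, 38 and 16 without the Paused library of these lines. They went to 729, 787 and 12 without the Serum library, and to 3223, 2229 and 1483 without the 2i library. Losing member calls without a Paused library or the Serum library of Oct4 GiP thus does not set these genes apart.

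**Figure D3:**
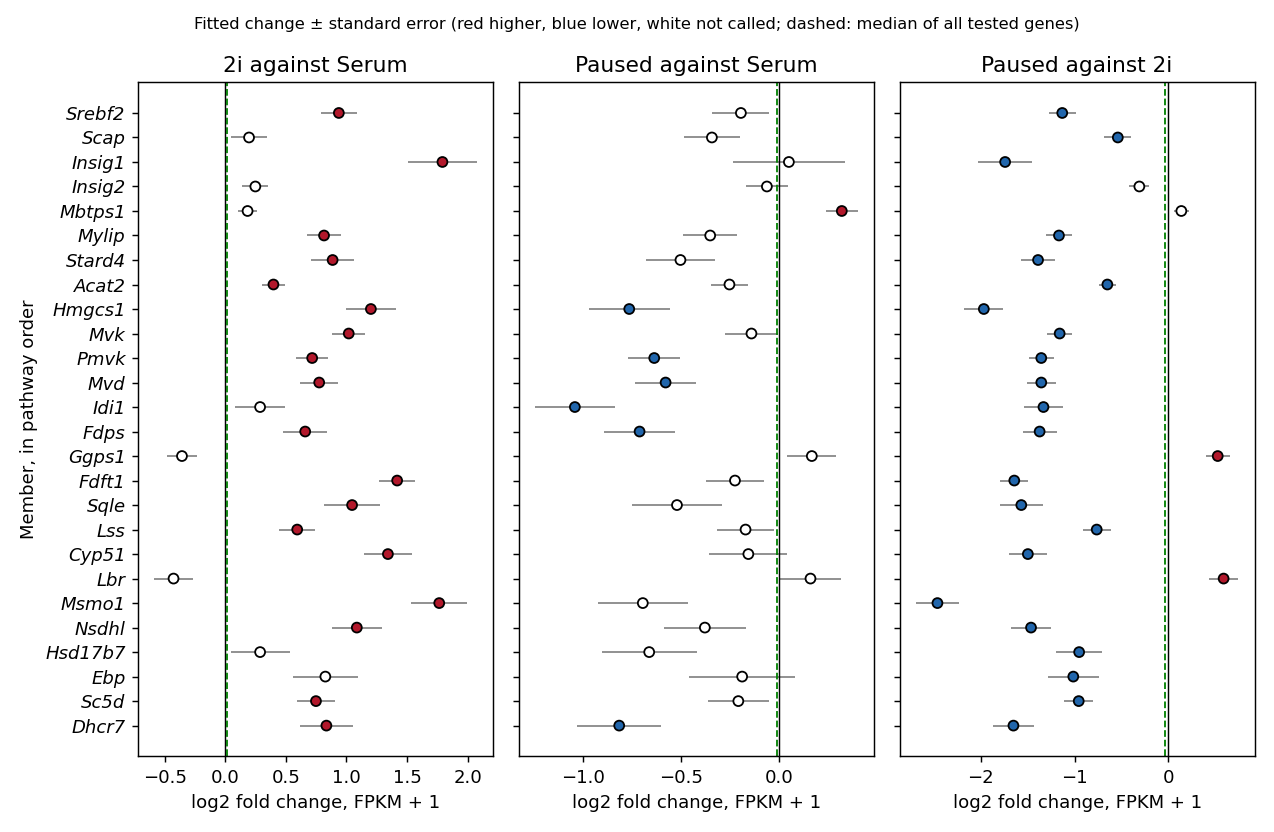
Fitted change on the log2(FPKM + 1) scale of the 26 genes in the 3 comparisons, with its standard error; red points were called higher, blue lower, white not called, and the dashed line marks the median of all tested genes. The left panel holds 18 red points, the middle panel 6 blue and 1 red, and the right panel 22 blue and 2 red.

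The authors' scale shifts all genes together, with medians over all genes of -0.88 for Paused against Serum, -0.33 for 2i against Serum and -0.56 for Paused against 2i. On it all 26 genes were lower in Paused than in Serum and 0 higher (limma, with 0 higher before adjustment too), where 76.9% of all genes were lower and 0.378% higher. Against Serum, 2i had 9 genes higher and 2, Ggps1 and Lbr, lower, where 9.76% were higher and 35.7% lower. Of the 18 called higher on FPKM, Stard4, Acat2, Pmvk, Mvd, Fdps, Sqle, Lss, Sc5d and Dhcr7 were not called on this scale. Paused against 2i had 24 lower and 0 higher (0 higher before adjustment), where 54.5% were lower and 6.21% higher. The medians of the 26 were -1.18, 0.47 and -1.90. Since 1 constant per library moves all genes nearly alike, their side relative to the median of all genes could hardly change.

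The regulators behaved unlike each other. Srebf2 itself stood at 54.6, 60.0 and 46.4 FPKM in Serum, at 115, 95.5 and 99.8 in 2i and at 43.8, 42.8 and 53.8 in Paused. Every 2i library lay above all others, and Serum and Paused overlapped. It rose by 0.94 ± 0.15 from Serum to 2i (adjusted p = 0.00468), was lower in Paused than in 2i (-1.13 ± 0.15, adjusted p = 0.00212) and differed from Serum in Paused by -0.19 ± 0.15 (adjusted p = 0.378). Its annotated span includes the small RNA gene Mir33.

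Insig1, the feedback gene that retains SCAP, had 25.6, 30.3 and 15.4 FPKM in Serum, 89.4, 78.5 and 77.8 in 2i and 20.7, 20.1 and 32.1 in Paused. The 2i libraries stood apart from all others, and Oct4 GiP had both the lowest Serum and the highest Paused value. The lncRNA Gm35223 overlaps the whole annotated span of Insig1 (7251 bases), so some reads may belong to that lncRNA. The 2i mean was 3.45 times the Serum mean, and the fitted change was 1.79 ± 0.29 (adjusted p = 0.00502). The fitted change of Msmo1, 1.77 ± 0.23, was within the standard error of it, and its ratio of means, 3.49, was slightly higher. Paused cells were lower than 2i (-1.74 ± 0.29, adjusted p = 0.00461), while Paused and Serum differed by 0.05 ± 0.29 (adjusted p = 0.913). Insig2, its paralog, stayed between 5.53 and 8.23 FPKM and was called in no comparison, although its 2i libraries lay above the others.

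Scap, the escort, had 17.3, 21.3 and 20.3 FPKM in Serum, 26.1, 23.1 and 19.0 in 2i and 13.4, 17.8 and 14.8 in Paused. Only the step from 2i to Paused was called (-0.54 ± 0.14, adjusted p = 0.0248), with no overlap, and it was not called without the Paused library of E14 (adjusted p = 0.106). Mbtps1, the protease that makes the first cut in SREBP2, had 47.3, 75.3 and 72.9 FPKM in Serum, 56.5, 78.1 and 86.8 in 2i and 59.0, 86.2 and 101 in Paused. Within each line Paused was highest and Serum lowest. All 3 conditions overlapped, and E14 had the lowest value in each. Its change in Paused against Serum was 0.32 ± 0.08 (adjusted p = 0.0422), but -0.60 on the authors' scale, where the direction turned. The joined row of Mbtps2 and Yy2 lay between 5.81 and 9.64 FPKM and was not called in any comparison.

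Both genes of uptake and transport were higher in 2i and lower in Paused than in 2i. Mylip encodes a ubiquitin ligase that marks lipoprotein receptors for breakdown, and it is a target of the sterol sensor LXR. It had 1.58, 1.97 and 1.15 FPKM in Serum, 4.03, 3.21 and 3.23 in 2i and 1.05, 0.976 and 0.955 in Paused, the lowest mean of the 26 in each condition. The 3 conditions did not overlap, and the changes were 0.81 ± 0.14 for 2i against Serum (adjusted p = 0.00600) and -1.17 ± 0.14 for Paused against 2i (adjusted p = 0.00169). Stard4, a carrier of cholesterol between membranes, had 7.61, 6.89 and 7.16 FPKM in Serum, 17.9, 10.5 and 15.1 in 2i and 4.78, 3.37 and 6.69 in Paused. These groups did not overlap either, with 0.89 ± 0.18 for 2i against Serum (adjusted p = 0.0102) and -1.39 ± 0.18 for Paused against 2i (adjusted p = 0.00204). Neither gene was called between Paused and Serum (adjusted p = 0.122 for Mylip and 0.0928 for Stard4), although both were lower in Paused in each line.

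Of the 8 genes of the mevalonate and isoprenoid steps, 6 were higher in 2i than in Serum and 7 lower in Paused than in 2i. Acat2 makes acetoacetyl-CoA, and its reads may be shared with its close relative Acat3 and with an overlapping pseudogene. It had 45.4, 43.4 and 45.7 FPKM in Serum, 61.6, 57.8 and 58.8 in 2i and 34.7, 34.9 and 43.3 in Paused, with no overlap of any 2 conditions. The changes were small and tight, 0.40 ± 0.09 (adjusted p = 0.0179) for 2i against Serum and -0.65 ± 0.09 (adjusted p = 0.00303) for Paused against 2i. On the authors' scale 2i against Serum was only 0.04 and was not called. Hmgcs1, the synthase of the next step and the bearer of the TCACNCCAC match, had 53.0, 67.3 and 37.6 FPKM in Serum, 106, 141 and 114 in 2i and 25.2, 29.1 and 35.7 in Paused. The 3 conditions were again separate, though in Oct4 GiP the values of Serum and Paused lay close together. The changes were 1.20 ± 0.21 (adjusted p = 0.00633) for 2i against Serum, -1.97 ± 0.21 (adjusted p = 0.00128) for Paused against 2i and -0.77 ± 0.21 (adjusted p = 0.0494) for Paused against Serum, the last lost whichever of the 9 libraries was left out.

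Mvk, the mevalonate kinase, had 21.3, 13.3 and 15.7 FPKM in Serum, 38.0, 33.0 and 32.4 in 2i and 14.7, 13.6 and 16.3 in Paused. Serum and Paused overlapped (-0.14 ± 0.13, adjusted p = 0.490), and 2i stood above both, by 1.02 ± 0.13 over Serum (adjusted p = 0.00291). Pmvk, which adds the following phosphate, had 33.1, 30.8 and 25.5 FPKM in Serum, 54.0, 47.6 and 46.7 in 2i and 17.6, 17.5 and 21.3 in Paused. Its 3 conditions were separate, and Paused was below Serum (-0.64 ± 0.13, adjusted p = 0.0268) and below 2i (-1.35 ± 0.13, adjusted p = 0.00106). Mvd, the decarboxylase that yields isopentenyl diphosphate, had 28.7, 34.4 and 34.5 FPKM in Serum, 41.6, 71.3 and 59.5 in 2i and 15.3, 21.6 and 29.3 in Paused. Serum and Paused overlapped by the Paused library of Oct4 GiP, and the call against Serum (-0.58 ± 0.16, adjusted p = 0.0490) was kept in 1 of 9 fits that left out a library.

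Idi1, the isomerase that makes dimethylallyl diphosphate, had 36.0, 59.6 and 34.5 FPKM in Serum, 50.3, 51.1 and 53.2 in 2i and 16.9, 19.2 and 24.1 in Paused. It had the largest fitted loss of the 26 in Paused against Serum (-1.04 ± 0.20, adjusted p = 0.0232), while 2i and Serum overlapped because the Serum library of v6.5 was above all of 2i (0.29 ± 0.20, adjusted p = 0.294). Fdps, the farnesyl diphosphate synthase, had 127, 115 and 90.9 FPKM in Serum, 224, 145 and 163 in 2i and 62.9, 61.0 and 77.5 in Paused. No conditions overlapped, and the changes were 0.66 ± 0.18 (adjusted p = 0.0283) for 2i against Serum and -0.71 ± 0.18 (adjusted p = 0.0421) for Paused against Serum. Ggps1, which draws farnesyl diphosphate off into geranylgeranyl diphosphate for protein prenylation, went the other way. It had 11.0, 16.1 and 11.9 FPKM in Serum, 9.45, 9.71 and 10.2 in 2i and 13.5, 14.8 and 15.3 in Paused. All 2i libraries lay below all others; Paused was above 2i by 0.53 ± 0.13 (adjusted p = 0.0168), by 0.01 on the authors' scale, and 2i against Serum was not called (-0.36 ± 0.13, adjusted p = 0.0633).

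All 3 enzymes of the squalene and lanosterol steps were higher in 2i than in Serum and lower in Paused than in 2i. Between Paused and Serum 0 of the 3 were called in either direction, nor at an unadjusted p under 0.05 in limma. Since 10.5% of all tested genes were called lower there and 7.64% higher, 0 of 3 does not set these steps apart. Fdft1, the squalene synthase at the branch towards sterols, had 22.1, 24.0 and 17.4 FPKM in Serum, 53.0, 62.4 and 58.3 in 2i and 16.2, 16.8 and 20.8 in Paused. Its 2i libraries lay above all others, with changes of 1.42 ± 0.15 (adjusted p = 0.00172) and -1.64 ± 0.15 (adjusted p = 0.000888), and its span overlaps that of Ctsb. Sqle, the squalene epoxidase, had 40.6, 52.5 and 29.9 FPKM in Serum, 106, 71.0 and 77.3 in 2i and 24.2, 28.8 and 29.9 in Paused. The E14 library of 2i was the highest, and 2i against Serum reached 1.05 ± 0.23 (adjusted p = 0.0140). Lss, the lanosterol synthase, had 25.7, 28.8 and 26.2 FPKM in Serum, 44.2, 43.4 and 36.1 in 2i and 22.3, 21.1 and 28.6 in Paused. Its changes were smaller, 0.59 ± 0.15 (adjusted p = 0.0211) against Serum and -0.76 ± 0.15 (adjusted p = 0.00804) for Paused against 2i.

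Among the 8 tested genes from lanosterol to cholesterol, 5 were higher in 2i than in Serum, and 7 were lower and 1 higher in Paused than in 2i. Cyp51, which removes a methyl group from lanosterol, had 11.1, 15.7 and 8.05 FPKM in Serum, 27.8, 32.2 and 30.2 in 2i and 8.62, 10.0 and 11.5 in Paused. The 2i libraries were apart from the rest, with 1.34 ± 0.20 for 2i against Serum (adjusted p = 0.00400) and -1.50 ± 0.20 for Paused against 2i (adjusted p = 0.00232). Msmo1, a sterol demethylase of the following steps, had 15.7, 31.0 and 18.8 FPKM in Serum, 51.5, 98.3 and 78.8 in 2i and 7.30, 13.4 and 19.8 in Paused. Its drop from 2i to Paused had the largest fitted size of the 26 (-2.46 ± 0.23, adjusted p = 0.000930), a mean 5.64 times lower, after a gain of 1.77 ± 0.23 in 2i against Serum (adjusted p = 0.00283). Paused against Serum was -0.70 ± 0.23 (adjusted p = 0.0809), with overlap through Oct4 GiP.

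Nsdhl, which acts with Msmo1 in the demethylation, had 10.2, 9.27 and 6.47 FPKM in Serum, 20.9, 16.9 and 20.0 in 2i and 5.66, 5.42 and 8.15 in Paused. The changes were 1.09 ± 0.21 (adjusted p = 0.00911) for 2i against Serum and -1.46 ± 0.21 (adjusted p = 0.00290) for Paused against 2i. Hsd17b7, the ketone reductase of that complex, was low, with 3.66, 4.52 and 2.78 FPKM in Serum, 2.98, 4.92 and 6.52 in 2i and 1.79, 1.66 and 2.29 in Paused. Serum and 2i overlapped and all Paused libraries lay below them, with a call against 2i (-0.95 ± 0.24, adjusted p = 0.0211) and none against Serum (-0.66 ± 0.24, adjusted p = 0.104). Ebp, the sterol isomerase, had 14.2, 7.12 and 12.1 FPKM in Serum, 18.1, 20.8 and 20.5 in 2i and 8.02, 6.27 and 15.6 in Paused. Its 2i libraries lay above all others, 2i against Serum just missed the threshold (0.83 ± 0.27, adjusted p = 0.0507), and Paused was lower than 2i (-1.01 ± 0.27, adjusted p = 0.0243).

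Sc5d, the desaturase that makes 7-dehydrocholesterol, had 6.29, 9.95 and 6.11 FPKM in Serum, 11.6, 14.1 and 13.1 in 2i and 5.61, 5.99 and 6.98 in Paused. The 2i libraries were highest (0.75 ± 0.16 over Serum, adjusted p = 0.0122), and Serum and Paused overlapped. Dhcr7, which turns 7-dehydrocholesterol into cholesterol, had 15.7, 23.7 and 13.8 FPKM in Serum, 34.6, 34.7 and 26.3 in 2i and 8.96, 8.21 and 11.2 in Paused. Its 3 conditions were separate, and it was the only gene of these steps called between Paused and Serum (-0.82 ± 0.22, adjusted p = 0.0467), a call lost whichever of the 9 libraries was left out. Lbr, a sterol reductase that is also a receptor for lamin B in the nuclear envelope, had 54.6, 68.0 and 51.9 FPKM in Serum, 31.8, 46.3 and 52.9 in 2i and 61.5, 69.5 and 63.5 in Paused. Paused lay above 2i in all libraries (0.59 ± 0.16, adjusted p = 0.0244; 0.04 on the authors' scale), and 2i against Serum was not called (-0.43 ± 0.16, adjusted p = 0.0715). Tm7sf2, the other sterol reductase of that step, shares its row with Vps51; the joined row had 15.6, 16.1 and 16.7 FPKM in Serum, 23.9, 31.8 and 35.3 in 2i and 12.2, 12.6 and 16.3 in Paused. It was called higher in 2i than in Serum (0.85 ± 0.12, adjusted p = 0.00324) and lower in Paused than in 2i (-1.09 ± 0.12, adjusted p = 0.00134), but how much of it belongs to Tm7sf2 is unknown.

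The order of the levels shifted with condition. Fdps had the highest mean of the 26 in Serum (111 ± 18.5 FPKM) and in 2i (177 ± 41.1), and Mbtps1 in Paused (82.0 ± 21.1), although Fdps at 67.1 ± 9.01 came next there and overlapped it. Lbr ranked 3 in Serum, 13 in 2i and 3 in Paused, and Msmo1 ranked 13, 6 and 17 (mean ± SD, n = 3, ranks from the highest).

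**Figure D4:**
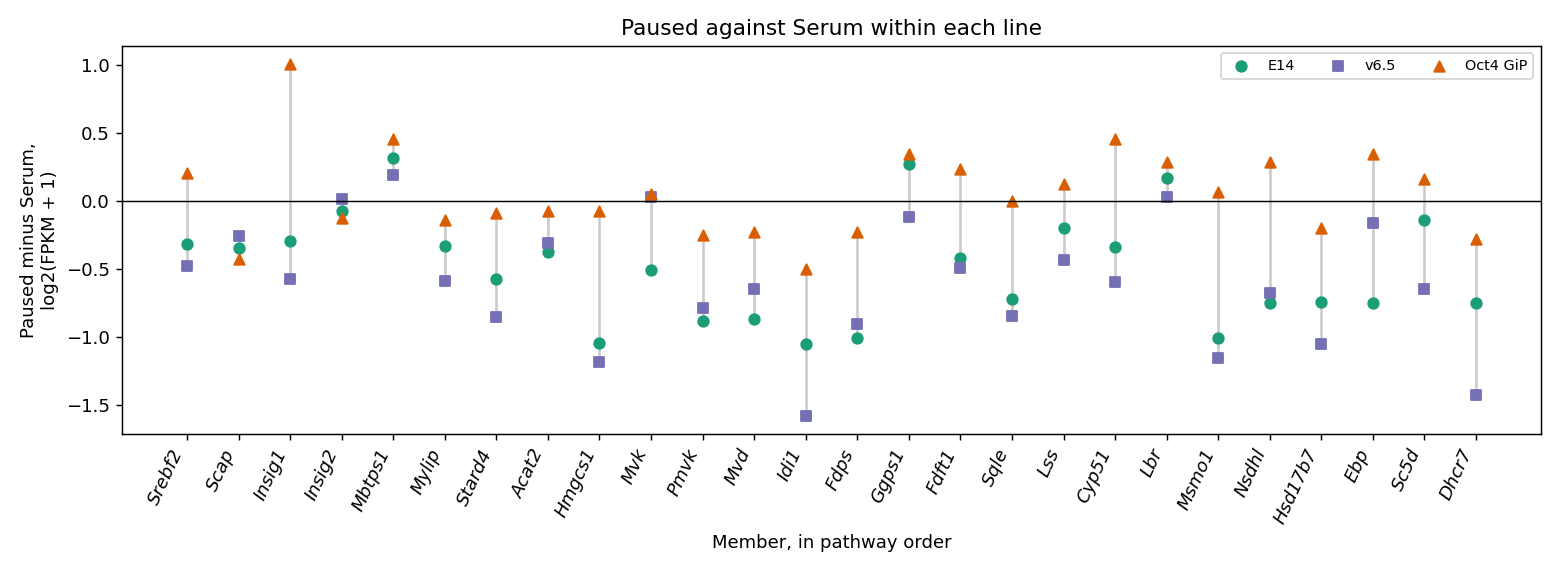
Paused minus Serum on the log2(FPKM + 1) scale within each line for the 26 genes, 1 point per line and gene. The E14 and v6.5 points lie below 0 for 23 and 22 genes, and the Oct4 GiP points are split, 13 below and 13 above.

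The lines differed in how Paused compared with Serum. In E14 and v6.5, 23 and 22 of the 26 genes were below 0, with medians of -0.46 and -0.59; in Oct4 GiP 13 were below, with a median of 0.03. Over all tested genes 52.4%, 51.7% and 49.9% were below 0 in the same order. These directions are those of FPKM. On the authors' scale the summed ratio of Paused to Serum was 0.343, 0.364 and 0.577, a fall in each line. Oct4 GiP had the lowest of the 3 Serum values for 15 genes and the highest of the 3 Paused values for 22, against 28.5% and 39.6% of all tested genes. With 1 library per line and condition, a difference between lines in the response leaves no residual to test it against, and these counts were singled out after the values were seen. Paused against 2i did not split in this way: the summed ratio was 0.398, 0.444 and 0.550.

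Averaged over conditions, most of these genes were not called between lines, which does not show that the lines were alike. The F test over the 3 lines called 1 of 26, Mbtps1 (adjusted p = 0.0399), where 1.5% of all genes were called; 3 were under 0.05 before adjustment, Mbtps1, Msmo1 and Mvd. Mbtps1 was higher in v6.5 than in E14 by 0.55 ± 0.08 (adjusted p = 0.0352), and higher in Oct4 GiP than in E14 by 0.66 ± 0.08, which was not called (adjusted p = 0.0665). E14 was the lowest line in each condition, and none of its 3 values reached any of the other 6. The call of Mbtps1 was lost whichever of the 9 libraries was left out. Msmo1 (0.89 ± 0.23, adjusted p = 0.118) and Mvd (0.50 ± 0.16, adjusted p = 0.168) were also lower in E14 than in v6.5 in each condition, without a call.

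Other genes that handle sterols or share their control were read from 6 further lists. Their counts stand against the same shares of all tested genes: 21.7% higher and 18.9% lower in 2i against Serum, 19.8% higher and 24.6% lower in Paused against 2i, and 7.64% higher and 10.5% lower in Paused against Serum. These are shares of calls after adjustment, and counts before adjustment have no such share beside them. Of 14 genes of SREBP1 and fatty acid synthesis, 10 rose in 2i against Serum and 0 fell (11 and 0 before adjustment, limma), 10 were lower in Paused than in 2i and 0 higher (12 and 0), and 3 were lower in Paused than in Serum and 0 higher (5 and 0). Scd1, a fatty acid desaturase, had 12.8, 11.8 and 7.03 FPKM in Serum, 72.4, 56.3 and 60.4 in 2i and 1.49, 2.14 and 3.61 in Paused, 3 separate ranges. Its changes, 2.50 ± 0.30 (adjusted p = 0.00230) for 2i against Serum and -4.27 ± 0.30 (adjusted p = 0.000518) for Paused against 2i, were larger than those of any of the 26 cholesterol genes. Of 6 genes that pass electrons to sterol oxidases, 3 were higher in 2i than in Serum and 0 lower (4 and 1 before adjustment), and 2 were lower in Paused than in Serum and 0 higher (3 and 0). Cyb5b, a cytochrome b5, had 39.4, 84.2 and 67.3 FPKM in Serum and 16.7, 40.0 and 33.2 in Paused (-1.08 ± 0.15, adjusted p = 0.0135), lower in each line.

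Of 13 tested genes of sterol trafficking and storage, 8 were higher and 1 lower in 2i than in Serum, 9 lower and 2 higher in Paused than in 2i, and 2 higher and 0 lower in Paused than in Serum (2 and 1 before adjustment, limma). The 2 higher in Paused than in 2i are near the 19.8% of all genes. Osbp and Osbpl2, the 2 called higher in Paused than in Serum, were below 0 in that comparison on the authors' scale (-0.56 and -0.28). Scarb1, the receptor for high-density lipoprotein, had 11.7, 10.9 and 9.25 FPKM in Serum, 46.3, 27.1 and 33.9 in 2i and 7.85, 4.97 and 8.31 in Paused. It rose in 2i by 1.64 ± 0.18 (adjusted p = 0.00177), and Npc2, which carries cholesterol out of lysosomes, rose by 1.39 ± 0.16 (adjusted p = 0.00194). Soat1, which esterifies cholesterol for storage, had 9.62, 9.95 and 6.24 FPKM in Serum, 1.01, 2.14 and 2.11 in 2i and 8.52, 7.71 and 6.15 in Paused. It was the 1 gene of the list lower in 2i (-1.81 ± 0.23, adjusted p = 0.00269), with no overlap, and it was higher again in Paused than in 2i (1.64 ± 0.23, adjusted p = 0.00285).

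Of 6 tested genes of LXR and sterol efflux, 2 were higher and 1 lower in 2i than in Serum, counts too small to set apart from the 21.7% and 18.9% of all genes, and 1, Abca1, was higher in Paused than in Serum with 0 lower (4 and 0 before adjustment, limma). Abca1, the exporter of cholesterol, had 3.74, 0.522 and 5.58 FPKM in Serum and 7.45, 3.998 and 15.6 in Paused (1.30 ± 0.31, adjusted p = 0.0369), higher within each line but overlapping between them. Whether this call, or others of the further lists such as Cyb5b, held with a library left out is not given here. On 12 rows of regulators of sterol sensing in the endoplasmic reticulum, 4 were higher and 0 lower in 2i than in Serum (5 and 0 before adjustment, limma), among them Lpin1 (1.48 ± 0.20, adjusted p = 0.00292), a phosphatidate phosphatase that restrains nuclear SREBP. Of 14 genes that use isoprenoids, 0 were called in either direction in Paused against Serum (limma, 2 higher and 1 lower before adjustment), while 3 were higher and 1 lower in 2i than in Serum and 5 lower and 1 higher in Paused than in 2i. The 3 of 14 higher in 2i are near the 21.7% of all genes.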

How the data were processed

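The authors deposited 1 table with 18 value columns, 2 for each of 9 libraries, all matched to a library by name (0 columns without a sample). The deposited FPKM were made with Cuffnorm on mm10, per the submitters' processing notes, which give no version; aligner, annotation and strand setting, not given in the sources used here, are unknown, so genes that overlap a neighbour (Insig1, Lss and Mvd with a lncRNA, Fdft1 with Ctsb) are uncertain. The second deposited column, handled as a score, is FPKM times 1 constant per library; neither its origin nor any link to the ERCC spike-in is stated in the labels.

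Of 29801 rows, 5644 without a gene name and 113 identical repeats were left out. Genes that reached FPKM 1 in 3 or more libraries were fitted with limma-trend (limma 3.58.1, R 4.3.3) on log2(FPKM + 1), all 9 libraries in 1 fit, with cell line as block, since the labels give the same 3 lines in each condition. Lines were compared in the same additive fit with condition as covariate. Depth is unknown. Alternatives were a pseudocount of 0.1, no filter, no block, the second column, median centring, and leaving out libraries, lines or conditions. Members called in any comparison are given by library. From each further list, up to 2 called genes per comparison and direction with the largest change and a mean of at least 5 FPKM were eligible to be named, and not all are. Members and lists were chosen with earlier results of these data known.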

Additional observations from a re-analysis of the deposited data

Results flagged for a closer look

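In 4 genes the lines moved in opposite directions between Serum and Paused, by more than 0.25 on the log2(FPKM + 1) scale in Oct4 GiP and in 1 or both of the others. Each value is the difference between 1 Paused and 1 Serum library of a line, and the difference between lines was not tested. In the order E14, v6.5 and Oct4 GiP, Insig1 changed by -0.29, -0.57 and 1.01. For Cyp51 the values were -0.34, -0.59 and 0.46. Nsdhl had -0.75, -0.68 and 0.29. Ebp had -0.75, -0.16 and 0.34, so only E14 was past 0.25 below 0. The opposite directions depend on the scale for all but Insig1. On the authors' scale Oct4 GiP fell from Serum to Paused for Cyp51 (29.3 to 22.8), Nsdhl (23.6 to 16.2) and Ebp (43.9 to 31.0). Insig1 still rose there, from 56.1 to 64.0.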

How the results depend on the processing

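With a pseudocount of 0.1 or median centring, every call of the 26 genes between conditions was kept with its direction; median centring added 2 lower calls in 2i against Serum, Ggps1 and Lbr, for 18 higher and 2 lower. For Paused against Serum, 7 genes were called. The count was 0 with no filter, 4 without the replicate block and 26 in the authors' second column. It was 0, 0 and 0 without E14, v6.5 or Oct4 GiP, and 0 to 5 when 1 library was left out. Over all genes 2311 were called, and 1117, 1602 and 9827 with no filter, without the block and in the authors' column. Without E14, v6.5 or Oct4 GiP 4, 7 and 4 genes of the whole table were called, and 12 to 3223 when 1 library was left out. Mbtps1 turned to -0.60 in the authors' column. For 2i against Serum, 18 were called. The count was 11 in the authors' column, 11 without E14 and 9 without Oct4 GiP, and 12 to 19 when 1 library was left out. Over all genes these counts were 5161, then 5778, 4102 and 1269, and 2969 to 5436. For Paused against 2i, 24 were called, and 19 to 24 when 1 library was left out, beside 5638 and 3543 to 5611 over all genes. Among the lines 1 was called. The count was 0 with no filter, 0 without the condition term (no replicate block) and 0 in the authors' column. It was 0, 0 and 0 without Serum, 2i or Paused, and 0 to 0 when 1 library was left out. Over all genes 191 were called, and 25, 8 and 63 with no filter, without the condition term and in the authors' column. Without Serum, 2i or Paused 6, 32 and 2 genes of the whole table were called, and 7 to 71 when 1 library was left out. The block changed no other count by over 1.5 times. The cause of these shifts was not tested; fits without a line or library hold fewer samples, and those with no filter adjust over more genes. Depth could not be assessed without counts.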

Other observations

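The 26 genes varied between lines by a different amount in each condition. Their median coefficient of variation over the 3 lines was 23.1% in Serum, 10.9% in 2i and 14.3% in Paused, where the median of all tested genes was 14.7%, 16.1% and 13.0%. With 3 libraries per condition each coefficient is imprecise. In Serum, v6.5 had the highest of the 3 values for 18 of the 26 genes, against 40.5% of all tested genes, and Oct4 GiP for 2. In 2i, E14 had the highest value for 13 genes and the lowest for 12, near the 43.0% and 36.5% of all tested genes. These counts were looked at after the values were seen and were not tested.

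In the list of fatty acid genes, Scd2 had 62.9, 59.5 and 36.6 FPKM in Serum, 220.0, 133 and 171 in 2i and 10.1, 18.7 and 31.1 in Paused (E14, v6.5 and Oct4 GiP). The line with the highest value in 2i thus had the lowest in Paused. Fads2 had 26.9, 33.0 and 21.3 FPKM in Serum, 66.6, 81.3 and 64.6 in 2i and 7.95, 7.62 and 8.45 in Paused, 3 separate ranges. Me1, a supplier of NADPH, rose in 2i against Serum by 1.73 ± 0.15 (limma, adjusted p = 0.00105). Rabggtb, a subunit of the enzyme that prenylates Rab proteins, was called lower in Paused than in 2i (-2.41 ± 0.79, adjusted p = 0.0480), but its Paused values of 214, 1063 and 81.3 FPKM spread widely.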
